A study of Drosophila melanogaster with 6 samples.

Results

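The mitochondrial genome of Drosophila melanogaster was followed here across 3 pupal tissues, through every gene whose symbol starts with mt: in the deposited gene or exon tables. This rule found 32 genes among the 14085 genes of the series. They are 13 protein genes, 2 rRNA genes, 16 tRNA genes and the control region mt:ori, and 20 lie on the plus strand of the annotated sequence and 12 on the minus strand. The annotation holds 38 mitochondrial genes, and the 6 that are in none of these tables are the tRNA genes for Gln, Glu, Ile, Met, Thr and Val. Per-library counts were at hand for 26 genes, namely 8 protein genes, the 16 tRNA genes, mt:srRNA and mt:ori. The other 6, mt:lrRNA, mt:CoIII, mt:ATPase6, mt:ATPase8, mt:ND4 and mt:ND4L, appear only in the gene tables, as the authors' means over 4 libraries.

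The mitochondrial genome encodes core subunits of the respiratory chain, the 2 RNAs of the mitochondrial ribosome and a set of tRNAs, while all other proteins of the organelle come from the nucleus. Complex I takes electrons from NADH, complex III passes them to cytochrome c, complex IV hands them to oxygen, and ATP synthase uses the resulting proton gradient. Both strands are transcribed into long precursors, from which the tRNAs that punctuate the genome are cut out, and the released mRNAs receive short poly(A) tails. Insect flight muscle is packed with mitochondria and burns fuel aerobically, and its mitochondria grow during the pupal stage.

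All samples came from pupae of the genotype w[1118], raised at 27 °C and staged to 72 h after puparium formation (APF). The tissues were indirect flight muscle (IFM), a fibrillar muscle that moves the wings, dissected brain, and whole leg, whose muscle is tubular and which also holds epidermis, cuticle and nerve. Each tissue had 2 libraries of poly(A)-selected RNA, 6 in all, which the study calls biological duplicates. The labels name GENEWIZ for mRNA selection and library preparation of IFM and LC Sciences for brain and leg, while the methods of the study name LC Sciences for all. If the labels hold, the provider and the tissue cannot be told apart for IFM. The number of animals per library was not analysed here, so a p-value here speaks of the variation among 6 libraries and no more.

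The libraries of IFM held 96106961 and 177957985 exon counts, those of brain 71672599 and 67027529 and those of leg 75152783 and 79545268. The columns of the exon tables name the tissue but not the replicate number, so the libraries of a tissue are called A and B here. Levels are given in CPM, counts relative to the size of the library after TMM scaling, which assumes that most genes do not differ between libraries. That assumption is to be read beside the shares of all genes that differed, given below. Flight muscle markers (Act88F, fln and TpnC4) summed to 73786 and 102080 CPM in IFM, 621 and 264 CPM in brain and 2405 and 2382 CPM in leg. Neuron markers (nSyb, brp and Syt1, with elav not tested) summed to 136 and 136 CPM in IFM, 4564 and 3274 CPM in brain and 326 and 223 CPM in leg. Fat body markers (Lsp2 and Fbp1) summed to 987 and 771 CPM in IFM, 143 and 88.9 CPM in brain and 179 and 281 CPM in leg, and their part in the results below was not tested.

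The mitochondrial genome took a larger share of the exon counts in both IFM libraries than in any brain or leg library. The 26 genes held 12.0% of the counts in IFM A and 3.44% in IFM B, against 1.09% and 1.18% in brain and 1.22% and 1.29% in leg. IFM averaged 7.72% ± 6.06, brain 1.13% ± 0.0661 and leg 1.26% ± 0.0525 (SD, n = 2 each). The IFM libraries thus differed from each other by more than IFM B differed from any library of brain or leg. With 2 libraries per tissue an exact two-sided permutation test cannot go below p = 0.33, so these shares are a description. The 95% Wilson intervals, which cover counting error only, ran from 12.0012% to 12.0142% in IFM A and from 3.436% to 3.442% in IFM B. In bulk tissue, more mitochondrial RNA per cell and more cells rich in mitochondria cannot be told apart.

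**Figure D1:**
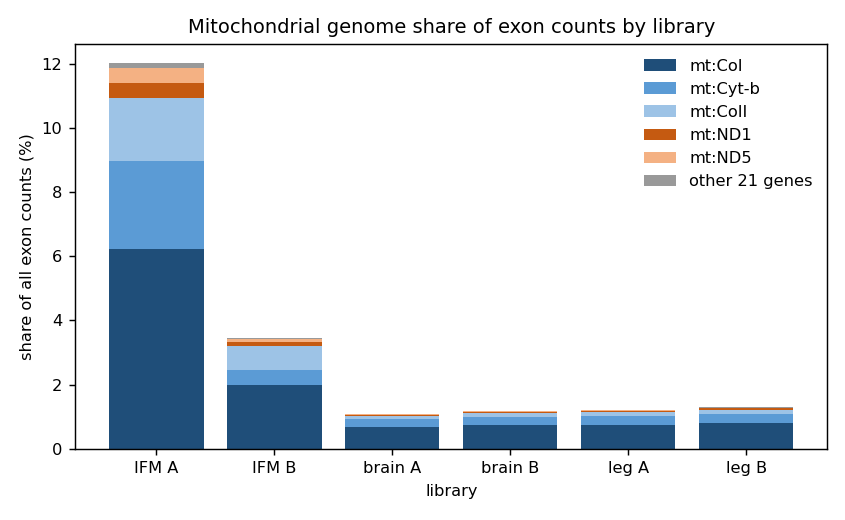
Share of all exon counts (%, vertical axis) held by the 26 mitochondrial genes with per-library counts in each library (horizontal axis), stacked by gene. The bars reach 12.0% and 3.44% in IFM A and B and between 1.09% and 1.29% in the brain and leg libraries, and mt:CoI is the largest piece of each bar.

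The 8 mitochondrial protein genes with per-library counts were expressed in a similar order per kilobase in all tissues. mt:CoI came first, mt:CoII and mt:Cyt-b next and mt:ND2 and mt:ND6 last. Per kilobase, mt:CoII stood above mt:Cyt-b in IFM but below it in brain and leg. By CPM, mt:Cyt-b stood above mt:CoII in IFM A (39881 and 28927 CPM) and below it in IFM B (7973 and 12416 CPM). Among these genes, levels per kilobase of counted exon, which allow genes to be compared, were highest for mt:CoI. They were 58968 and 21563 CPM per kilobase in IFM, 2768 and 2768 CPM per kilobase in brain and 5032 and 5475 CPM per kilobase in leg. By CPM, mt:CoI ranked 2 and 7 among 12345 tested genes in IFM, 4 and 3 among those of the brain libraries and 20 and 18 in the leg libraries. mt:ND6 had 64.9 and 47.7 CPM per kilobase in IFM, 0.389 and 0.866 CPM per kilobase in brain and 1.93 and 0.782 CPM per kilobase in leg. mt:ND2 had 172 and 125 CPM per kilobase in IFM, 0.434 and 0.120 CPM per kilobase in brain and 0.787 and 0.647 CPM per kilobase in leg.

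**Figure D2:**
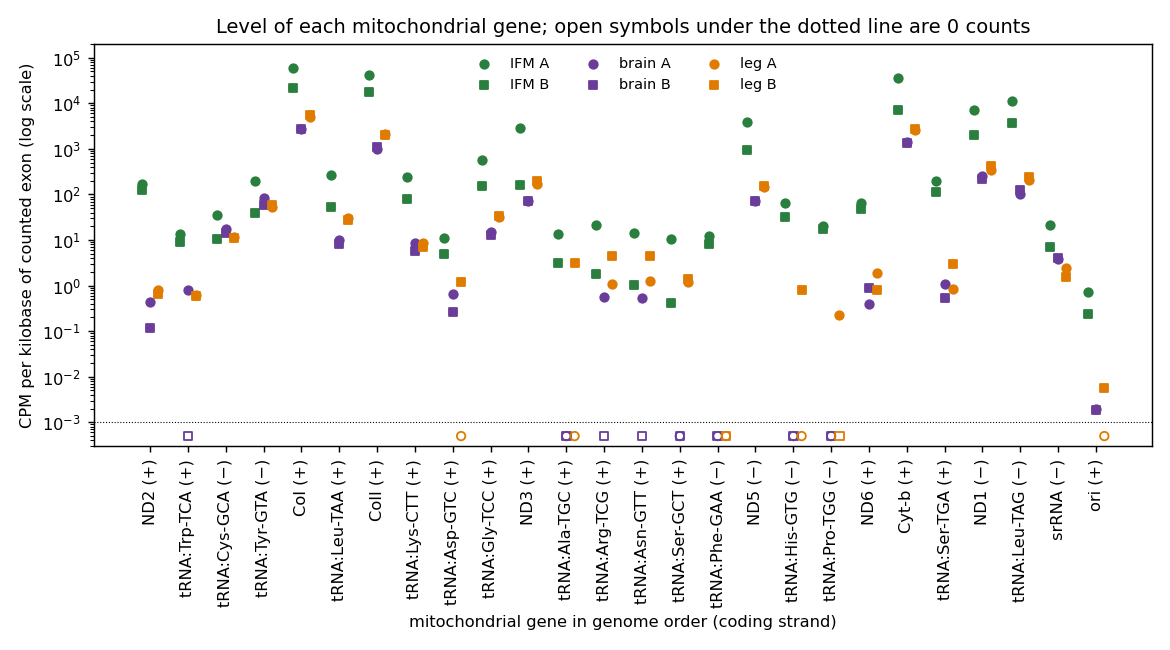
Level of the 26 mitochondrial genes in each library, as CPM per kilobase on a log axis, with genes in genome order and their strand in brackets. IFM points lie above brain and leg points for most genes; open symbols under the dotted line mark libraries with 0 counts, as for mt:tRNA:Phe-GAA in all brain and leg libraries.

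Mitochondrial genes were higher in IFM than in the other tissues. Of the 15 genes with at least 50 counts in brain and leg together, 13 were higher in IFM than in brain and 12 higher in IFM than in leg, and none was lower. Across all 12345 genes, 33.1% were higher and 33.5% lower in IFM than in brain (66.6% in either direction), and 29.8% were higher and 27.5% lower in IFM than in leg (57.3% in either direction). The other 11 genes passed the filter of 50 counts only through their IFM counts, so their calls (10 against brain and 6 against leg, all higher in IFM) carry no weight as a count. All 8 protein genes with counts were higher in IFM than in brain and 7 of the 8 higher in IFM than in leg, with median log2 fold changes of 4.62 and 3.74, beside medians of -0.01 and 0.08 over all genes. The called genes kept this direction with DESeq2, total exon counts or TMM without the mitochondrial genes, where 6 of the 23 calls against brain and 2 of the 18 against leg were lost with total exon counts, but relative to the summed mitochondrial counts 7 of the 26 genes had the opposite sign against brain and 11 against leg, among them mt:CoI, mt:Cyt-b, mt:ND3, mt:srRNA and mt:tRNA:Leu-TAA in both comparisons. Of the 15 genes, 13 did not overlap between IFM and brain (42.4% of all genes were higher without overlap in IFM and 43.5% lower), and 12 did not overlap between IFM and leg (42.8% and 39.6% of all genes).

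Among the 26 mitochondrial genes with per-library counts, mt:CoI of complex IV had the highest level in every library, in CPM and in CPM per kb. mt:lrRNA, which is not among them, had a higher mean than mt:CoI in the authors' gene tables. mt:CoI, the catalytic subunit (positions 1474 to 3009 of the mitochondrial genome, build BDGP6, plus strand), had 90574 and 33120 CPM in IFM, 4252 and 4252 CPM in brain and 7729 and 8409 CPM in leg. The IFM and other libraries did not overlap, and the 2 brain libraries were nearly equal. It was 14.5-fold higher in IFM than in brain (log2 fold change 3.86, SE 0.60, adjusted p = 0.00192 by edgeR) and 7.66-fold higher than in leg (2.94, SE 0.58, adjusted p = 0.00668). Without IFM A these values were 8.50-fold and 4.21-fold, without IFM B they were 23.2-fold and 11.5-fold, and without leg A the call against leg was lost. mt:CoII, which takes up electrons from cytochrome c (positions 3083 to 3767, plus strand), had 28927 and 12416 CPM in IFM, 681 and 748 CPM in brain and 1417 and 1390 CPM in leg. It was 28.9-fold higher in IFM than in brain (log2 fold change 4.85, SE 0.51, adjusted p = 0.000347) and 14.7-fold higher than in leg (3.88, SE 0.49, adjusted p = 0.00114). Without IFM A it was 19.0-fold and 9.08-fold higher, and without IFM B 44.1-fold and 21.1-fold higher.

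Complex III has a single subunit encoded in the mitochondrion, cytochrome b. mt:Cyt-b (positions 10499 to 11635, plus strand) had 39881 and 7973 CPM in IFM, 1577 and 1541 CPM in brain and 2937 and 3090 CPM in leg. IFM A stood 5.00-fold above IFM B, and IFM B still stood above all brain and leg libraries. mt:Cyt-b was 15.3-fold higher in IFM than in brain (log2 fold change 3.94, SE 0.78, adjusted p = 0.00507) and 7.94-fold higher than in leg (2.99, SE 0.74, adjusted p = 0.0155). Without IFM A it was 5.58-fold and 2.71-fold higher, and without IFM B 27.9-fold and 13.6-fold higher. The call against leg was lost without either leg library.

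Complex I subunits covered the widest range. mt:ND1 (positions 11721 to 12659) and mt:ND5 (positions 6409 to 8125), both membrane arm subunits read from the minus strand, were the most abundant of the 5 with counts. mt:ND1 had 6842 and 1863 CPM in IFM, 238 and 209 CPM in brain and 326 and 394 CPM in leg. mt:ND5 had 6667 and 1611 CPM in IFM, 120 and 122 CPM in brain and 254 and 265 CPM in leg. Neither gene overlapped between IFM and the other tissues. mt:ND1 was 19.5-fold higher in IFM than in brain (adjusted p = 0.00159) and 12.1-fold higher than in leg (adjusted p = 0.00399), and mt:ND5 was 34.1-fold (adjusted p = 0.00113) and 15.9-fold higher (adjusted p = 0.00355). Without IFM A, mt:ND1 was 9.09-fold and 5.30-fold higher and mt:ND5 14.5-fold and 6.36-fold higher. Without IFM B, mt:ND1 was 33.4-fold and 19.5-fold higher and mt:ND5 59.9-fold and 26.3-fold higher.

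mt:ND3 (positions 5608 to 5961, plus strand) rested on a single IFM library in the comparison with leg. It had 1008 CPM in IFM A and 56.8 CPM in IFM B, against 25.6 and 25.4 CPM in brain and 59.0 and 69.7 CPM in leg. IFM B was thus below both leg libraries and above both brain libraries. mt:ND3 was 20.9-fold higher in IFM than in brain (log2 fold change 4.39, SE 1.20, adjusted p = 0.0182), and its 8.27-fold difference from leg did not pass the test (3.05, SE 1.13, adjusted p = 0.0584). Without IFM A the log2 fold change was 1.28 against brain and -0.14 against leg, and without IFM B it was 5.43 and 4.01. The call against brain was lost without either brain library.

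mt:ND2 and mt:ND6 had the largest fold changes among the protein genes with counts. mt:ND2 (positions 240 to 1263, plus strand) had 176 and 128 CPM in IFM, 0.444 and 0.122 CPM in brain and 0.806 and 0.662 CPM in leg. Behind these levels stood 11602 and 13647 counts in IFM, 50 and 14 counts in brain and 58 and 50 counts in leg. mt:ND6 (positions 9971 to 10495, plus strand) had 34.1 and 25.1 CPM in IFM, 0.204 and 0.455 CPM in brain and 1.01 and 0.411 CPM in leg, from 2248 and 2669 counts in IFM, 23 and 52 counts in brain and 73 and 31 counts in leg. mt:ND2 was 535-fold higher in IFM than in brain (log2 fold change 9.06, SE 0.59, adjusted p = 5.11e-05) and 207-fold higher than in leg (7.69, SE 0.55, adjusted p = 0.000153). mt:ND6 was 89.3-fold higher in IFM than in brain (6.48, SE 0.62, adjusted p = 0.000227) and 41.5-fold higher than in leg (5.37, SE 0.59, adjusted p = 0.000652). Leaving out any library kept these calls, with log2 fold changes of mt:ND2 between 8.54 and 10.37 against brain and between 7.48 and 7.94 against leg, and of mt:ND6 between 6.13 and 7.29 and between 4.86 and 6.19. Single brain or leg libraries set the widest of these, since mt:ND2 was 1321-fold higher than in brain without brain A, and mt:ND6 157-fold higher than in brain without brain B and 73.2-fold higher than in leg without leg A.

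**Figure D3:**
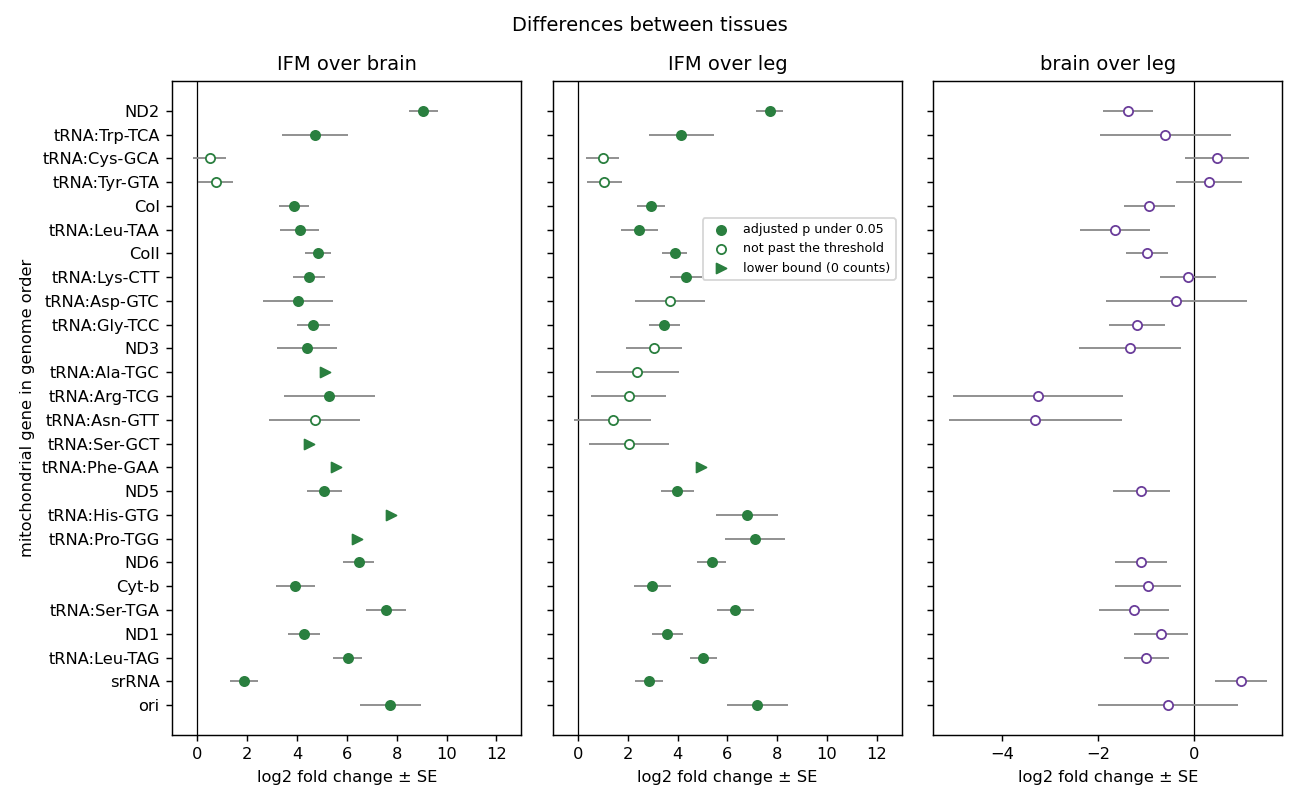
Log2 fold change ± SE (horizontal axis, edgeR) of each mitochondrial gene in genome order for the 3 comparisons of tissues. Filled circles have an adjusted p under 0.05, triangles are lower bounds where a group had 0 counts, and genes at 0 counts in brain or leg are left out of the panel of brain over leg. Values of IFM over brain and IFM over leg lie right of 0 under this scaling (7 genes against brain and 11 against leg change sign relative to the summed mitochondrial counts), and no gene is filled in the panel of brain over leg.

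The IFM libraries differed from each other in mitochondrial genes far more than in other genes. Among the 21 mitochondrial genes with at least 50 counts in both, the median ratio of IFM A over IFM B was 3.03, and 52.4% exceeded 3-fold. Over 10247 genes the median ratio was 1.02, and 2.61% exceeded 3-fold. The ratio was not uniform along the genome. It was 1.37 for mt:ND2 and 1.36 for mt:ND6, 2.33 for mt:CoII, 2.73 for mt:CoI, 3.67 for mt:ND1, 4.14 for mt:ND5, 5.00 for mt:Cyt-b and 17.8 for mt:ND3. The 4 tRNA genes downstream of mt:ND3 fell short of 50 counts in IFM B, with 57 and 22 counts in IFM A and B for mt:tRNA:Ala-TGC, 92 and 12 for mt:tRNA:Arg-TCG, 62 and 7 for mt:tRNA:Asn-GTT and 48 and 3 for mt:tRNA:Ser-GCT. Brain libraries differed little, with a median A over B ratio of 1.02 over 12 mitochondrial genes and a range of 0.849 to 1.42. Leg libraries had a median ratio of 0.959 over 13 genes and a range of 0.825 to 1.52.

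**Figure D4:**
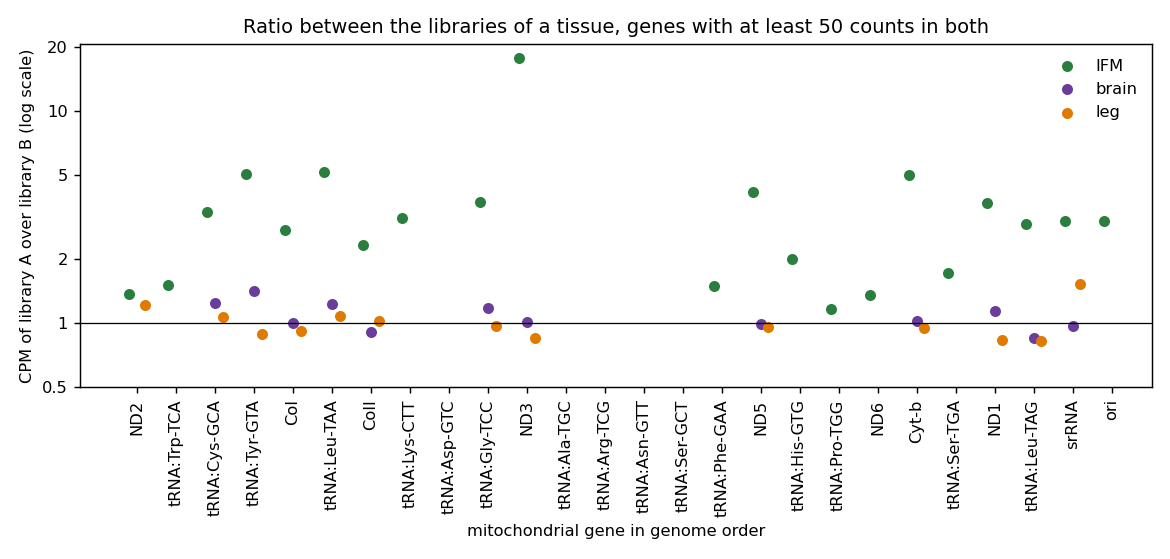
Ratio of CPM in library A over library B of a tissue (log axis) for mitochondrial genes with at least 50 counts in both libraries, in genome order. IFM ratios run from 1.16 to 17.8, the highest being mt:ND3, while brain and leg ratios lie between 0.825 and 1.52.

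tRNA genes carried few counts in this poly(A)-selected RNA, and the strongest was mt:tRNA:Leu-TAG. tRNAs are cut out of the precursors and bear no poly(A) tail of the mRNA kind, and their bins of 61 to 71 bases are shorter than a read, so reads over them can reach into the neighbouring gene. mt:tRNA:Leu-TAG, which abuts mt:lrRNA, had 717 and 246 CPM in IFM, 6.77 and 7.97 CPM in brain and 13.2 and 16.04 CPM in leg. Its exon bin held 47302 and 26209 counts in the IFM libraries, yet the authors' gene tables do not list this gene. mt:tRNA:Leu-TAG was 65.4-fold higher in IFM than in brain (log2 fold change 6.03, SE 0.57, adjusted p = 0.00022) and 32.9-fold higher than in leg (5.04, SE 0.55, adjusted p = 0.000632). Without IFM A it was 36.4-fold and 17.2-fold higher, and without IFM B 106-fold and 50.2-fold higher. mt:tRNA:Gly-TCC, which abuts mt:ND3, had 36.7 and 9.85 CPM in IFM, 0.995 and 0.848 CPM in brain and 2.07 and 2.15 CPM in leg, and was higher in IFM in both comparisons (25.2-fold, adjusted p = 0.00122, and 11.03-fold, adjusted p = 0.00462). Without IFM A it was 11.7-fold and 4.79-fold higher, and without IFM B 43.4-fold and 17.8-fold higher. mt:tRNA:Lys-CTT, which follows mt:CoII, had 17.5 and 5.59 CPM in IFM, 0.622 and 0.411 CPM in brain and 0.625 and 0.503 CPM in leg, and was also called in both (22.3-fold, adjusted p = 0.00136, and 20.4-fold, adjusted p = 0.00219). Without IFM A it was 11.8-fold and 10.1-fold higher, and without IFM B 36.8-fold and 31.7-fold higher. mt:tRNA:Leu-TAA, between mt:CoI and mt:CoII, had 17.8 and 3.45 CPM in IFM, 0.675 and 0.551 CPM in brain and 1.99 and 1.84 CPM in leg. It was 17.2-fold higher in IFM than in brain (adjusted p = 0.00466; 6.13-fold without IFM A and 31.5-fold without IFM B), and its call against leg (adjusted p = 0.029) was lost when any library but IFM B was left out.

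Among the other minus-strand tRNA genes, mt:tRNA:His-GTG, mt:tRNA:Phe-GAA and mt:tRNA:Pro-TGG were read in IFM and hardly at all elsewhere. mt:tRNA:Phe-GAA abuts mt:ND5, and mt:tRNA:His-GTG lies between mt:ND5 and mt:ND4, both on the minus strand. mt:tRNA:Pro-TGG (positions 9903 to 9968) lies between minus-strand mt:ND4L, which ends at 9835, and plus-strand mt:ND6, which starts at 9971. mt:tRNA:His-GTG had 277 and 223 counts in IFM, 0 and 0 counts in brain and 0 and 4 counts in leg. mt:tRNA:Pro-TGG had 80 and 111 counts in IFM, 0 and 0 counts in brain and 1 and 0 counts in leg. mt:tRNA:Phe-GAA had 52 and 56 counts in IFM and 0 in each brain and leg library. All of these genes passed the filter only through IFM, so their calls carry no weight as a count. With the floor of 3 counts over both brain libraries, they were at least 219-fold, 83.8-fold and 47.4-fold higher in IFM than in brain, and mt:tRNA:Phe-GAA was at least 30.8-fold higher in IFM than in leg. With IFM B alone the first of these bounds was 146-fold, and the calls of mt:tRNA:Phe-GAA were lost without IFM A in both comparisons and without IFM B against leg. mt:tRNA:Cys-GCA and mt:tRNA:Tyr-GTA, which lie on the minus strand between the plus-strand genes mt:ND2 and mt:CoI, did not pass the test in any comparison.

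The values of mt:tRNA:Tyr-GTA overlapped between tissues, at 13.01 and 2.58 CPM in IFM, 5.45 and 3.85 CPM in brain and 3.49 and 3.92 CPM in leg. Those of mt:tRNA:Cys-GCA were 2.20 and 0.657 CPM in IFM, 1.11 and 0.892 CPM in brain and 0.737 and 0.689 CPM in leg. For both genes IFM A was above and IFM B below all brain and leg libraries. Without IFM B, mt:tRNA:Tyr-GTA was higher in IFM than in brain (log2 fold change 1.61, adjusted p = 0.0110) and than in leg (1.85, adjusted p = 0.0098), while without IFM A its log2 fold changes were -0.72 and -0.48 and passed neither test. The libraries were stranded, but the strand setting of the exon counts is not given in the sources used here. Reads of these tRNA genes and reads from the opposite strand therefore cannot be told apart. The authors' normalized mean of mt:tRNA:Tyr-GTA over the 4 libraries of brain and flight muscle was 4.67. Its exon bin held 858, 275, 614 and 440 counts there. For mt:srRNA that mean was 277, beside 1125, 597, 341 and 357 exon counts. Most exon counts of mt:tRNA:Tyr-GTA were thus not assigned to that gene by the authors' gene counting, for reasons that were not tested. mt:tRNA:Cys-GCA also overlaps mt:tRNA:Trp-TCA, on the opposite strand, at positions 1322 to 1329.

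The remaining tRNA genes, all on the plus strand, passed the filter only through IFM, so their calls carry no weight as a count. Among them mt:tRNA:Ser-TGA had the highest level in IFM. It follows mt:Cyt-b and had 13.1 and 7.60 CPM in IFM, 0.0710 and 0.0350 CPM in brain and 0.0556 and 0.199 CPM in leg, and it was 190-fold higher in IFM than in brain (adjusted p = 0.000322) and 79.9-fold higher than in leg (adjusted p = 0.000839). Without IFM A it was 153-fold and 60.5-fold higher, without brain A 305-fold higher than in brain and without leg B 181-fold higher than in leg. The 6 others, for Trp, Asp, Ala, Arg, Asn and Ser-GCT, reached at most 1.39 CPM in any library. mt:tRNA:Ala-TGC and mt:tRNA:Ser-GCT had 0 counts in brain, which makes them at least 34.7-fold and 22.4-fold higher in IFM. These bounds rest on IFM A: with IFM B alone, that of mt:tRNA:Ala-TGC was 13.4-fold, and mt:tRNA:Ser-GCT, with 3 counts in IFM B, was at the floor itself. Both calls were lost without either brain library, and that of mt:tRNA:Ala-TGC also without IFM B. Of these 6 only mt:tRNA:Trp-TCA was called against leg (adjusted p = 0.0346, lost without any of the IFM and leg libraries), and mt:tRNA:Asn-GTT was not called against brain (adjusted p = 0.0602).

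The small rRNA differed from the mRNAs in its pattern. mt:srRNA (positions 14131 to 14916, minus strand), the RNA of the small ribosomal subunit, had 17.1 and 5.61 CPM in IFM, 3.03 and 3.12 CPM in brain and 1.88 and 1.23 CPM in leg. No tissue overlapped with another, and brain was above leg, unlike for the protein genes. It was 3.68-fold higher in IFM than in brain (log2 fold change 1.88, SE 0.55, adjusted p = 0.0226) and 7.28-fold higher than in leg (2.86, SE 0.57, adjusted p = 0.0071). The call against brain was lost without IFM A (1.99-fold, adjusted p = 0.0888), without either brain library and with total exon counts (1.49-fold, adjusted p = 0.398), and without IFM A the difference from leg was 3.70-fold. Without IFM B it was 6.04-fold higher than in brain and 11.2-fold higher than in leg. In this poly(A)-selected RNA the authors' mean over IFM and brain was 277 for mt:srRNA, against 9325758 for mt:lrRNA. Whether the level of mt:srRNA here follows the amount of that rRNA was not tested. mt:ori, the control region that holds the replication origins, had 218 and 116 counts over its 4608 bases in IFM, 1 and 1 counts in brain and 0 and 2 counts in leg. It was called higher in IFM in both comparisons (adjusted p = 0.00195 and 0.00357) and also when any 1 library was left out, but it passed the filter only through IFM.

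Genes of both strands were higher in IFM. Over the protein genes, the median log2 fold change of IFM over brain was 4.62 for the 6 on the plus strand and 4.69 for the 2 on the minus strand, and that of IFM over leg was 3.46 and 3.79. All 6 plus-strand and both minus-strand protein genes were called higher against brain, where 33.1% of all genes were. Against leg 5 of 6 and 2 of 2 were called higher, where 29.8% of all genes were.

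Brain and leg differed less. None of the 26 genes passed the test between brain and leg, where 43.5% of all genes did, and only mt:ND2 had an unadjusted p under 0.05. That fit shares 1 estimate of the spread with IFM. When only the 4 libraries of brain and leg were fitted, 8 of 15 genes were lower in brain, where 25.7% of all genes were. When either IFM library was left out 9 genes were lower in brain, where 23.5% (without IFM A) and 23.1% (without IFM B) of all genes were. In the fit of 4 libraries mt:CoI was 0.514 times its leg level in brain (adjusted p = 0.00216), mt:CoII 0.498 times (adjusted p = 0.002), mt:Cyt-b 0.505 times (adjusted p = 0.00196), mt:ND1 0.604 times (adjusted p = 0.0151), mt:ND3 0.386 times (adjusted p = 0.000255) and mt:ND5 0.456 times (adjusted p = 0.000839). mt:tRNA:Leu-TAA and mt:tRNA:Leu-TAG were the remaining 2. Levels of 12 of the 15 genes with at least 50 counts in these tissues did not overlap between brain and leg, 10 of them lower in brain (34.3% of all genes) and 2, mt:srRNA and mt:tRNA:Cys-GCA, higher in brain (39% of all genes). Scaling by total exon counts moved the median of all genes by 0.78 toward brain, and under it the values of mt:CoI, mt:CoII and mt:Cyt-b were -0.14, -0.19 and -0.17 on the log2 scale and mt:ND1 was at 0.09.

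The make-up of the mitochondrial counts was compared with library sizes set to the summed mitochondrial counts, meaning those of the 26 genes with per-library counts. These sums leave out mt:lrRNA, mt:CoIII, mt:ATPase6, mt:ATPase8, mt:ND4 and mt:ND4L, so the shares are not shares of all mitochondrial RNA. In the authors' table of IFM and brain, mt:lrRNA was 17.1% and mt:CoI 3.07% of the summed means of all genes. mt:CoI made up 51.8% and 57.6% of the mitochondrial counts in IFM, 61.5% and 61.5% of those in brain and 60.6% and 61.6% of those in leg. mt:CoII made up 16.5% and 21.6% in IFM, 9.85% and 10.8% of those in brain and 11.1% and 10.2% in leg. mt:Cyt-b made up 22.8% and 13.9% in IFM, 22.8% and 22.3% of those in brain and 23.0% and 22.6% in leg, so that only IFM B stood apart. Neither mt:CoI, mt:CoII nor mt:Cyt-b passed the test within the mitochondrial counts. mt:ND5, with 3.81% and 2.80% in IFM, 1.74% and 1.77% of those in brain and 1.99% and 1.94% in leg, did not pass it either.

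mt:ND2 and mt:ND6 kept their excess in IFM within the mitochondrial counts. mt:ND2 made up 0.101% and 0.223% of them in IFM, 0.00642% and 0.00177% of those in brain and 0.00632% and 0.00485% in leg, and was 39.5-fold higher in IFM than in brain (adjusted p = 4.1e-08) and 28.9-fold higher than in leg (adjusted p = 7.03e-07). mt:ND6 was 6.61-fold higher than in brain (adjusted p = 0.00439) and 5.76-fold higher than in leg (adjusted p = 0.00934), and mt:tRNA:Leu-TAG 3.93-fold (adjusted p = 0.0213) and 3.79-fold higher (adjusted p = 0.0281). Of the 15 genes with at least 50 counts in brain and leg, these 3 were higher in both comparisons, where 4.07% and 4.43% of all genes were. mt:srRNA, mt:tRNA:Cys-GCA and mt:tRNA:Tyr-GTA were lower in IFM than in brain within the mitochondrial counts, at 0.219, 0.0832 and 0.0888 times the brain share, and mt:tRNA:Tyr-GTA was also lower than in leg, at 0.213 times. By this scaling 73.3% of all genes were lower in IFM than in brain and 65.8% lower than in leg. Between brain and leg no mitochondrial gene passed within the mitochondrial counts, where 17.4% of all genes were higher and 3.88% lower in brain.

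The 6 genes known only from the gene tables include the most abundant RNA of the organelle. mt:lrRNA (positions 12735 to 14058, minus strand), the RNA of the large ribosomal subunit, had the highest mean of all genes in both tables with IFM. The authors' mean normalized count over 4 libraries was 9325758 in the table of IFM and brain, 7617537 in that of IFM and leg and 832279 in that of brain and leg, where it ranked 3. These were 17.1%, 15.3% and 2.67% of the summed means of each table. All mt: genes together made up 25.7% and 23.2% of the 2 tables with IFM and 5.13% of that of brain and leg. The tables were normalized separately by the authors and share libraries, so they are set side by side with no test.

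mt:CoIII, the third core subunit of complex IV, had authors' means of 1165024 in IFM and brain, 989482 in IFM and leg and 233233 in brain and leg. mt:ATPase6, the proton channel subunit of ATP synthase, had 230704, 199177 and 47443. mt:ND4, a membrane arm subunit of complex I on the minus strand, had 192260, 160240 and 23942. The ratio of the table of IFM and brain to that of brain and leg was 5.00 for mt:CoIII, 4.86 for mt:ATPase6, 8.03 for mt:ND4 and 11.2 for mt:lrRNA, beside 5.95 for mt:CoI, 287 for mt:ND2 and a median of 1.04 over 12001 genes. The 95th percentile over those genes was 18.2, and of the ratios named here only that of mt:ND2 lay above it. mt:ND4L had means of 349 in IFM and brain and 277 in IFM and leg, and mt:ATPase8 had 6.89 and 5.44. mt:ATPase8 ends at position 4068, inside mt:ATPase6, which starts at 4062, and mt:ND4L and mt:ND4, both on the minus strand, share position 9545. How the authors' counting treated reads that touch both genes is not given in the sources used here, so the levels of these neighbours are uncertain.

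The nuclear subunits of the same complexes were higher in IFM as well. Of 69 nuclear subunits of complexes I, III and IV and ATP synthase that were tested, 61 had at least 50 counts in brain and leg together. Of these 61, 60 were higher in IFM than in brain and 60 higher in IFM than in leg, beside 33.1% and 29.8% of all genes, and COX7A was lower in both. Their median log2 fold change was 3.44 for IFM over brain and 2.35 for IFM over leg, beside 4.62 and 3.74 for the 8 mitochondrial protein genes. The summed CPM of the 8 mitochondrial over the 69 nuclear subunits was 1.37 in IFM A but 0.366 in IFM B. In brain and leg this ratio was 0.505 to 0.692. By summed levels, a larger rise of mitochondrial than of nuclear subunits was thus seen in IFM A only. By complex, the 30 subunits of complex I and the 9 of complex III among the 61 were all higher in IFM in both comparisons, as were 8 of 9 of complex IV and 13 of 13 of ATP synthase. The other 8 subunits, 6 of complex I and 2 of ATP synthase, passed the filter only through IFM, so their calls carry no weight as a count. Between brain and leg 55 of the 61 were lower in brain and 1 higher, beside 20.9% and 22.6% of all genes, with a median of -1.08, against -1.04 for the mitochondrial protein genes.

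For the most counted nuclear subunits IFM A was below IFM B, unlike for the mitochondrial protein genes. ATPsynbeta, the catalytic subunit of ATP synthase, had 20325 and 25934 CPM in IFM, 1452 and 1525 CPM in brain and 3662 and 4274 CPM in leg, and blw, its alpha subunit, had 17283 and 27898 CPM in IFM, 975 and 895 CPM in brain and 2681 and 2998 CPM in leg. ND-75 and ND-49, core subunits of complex I, had 2415 and 3047 CPM and 2229 and 2687 CPM in IFM, 189 and 211 CPM and 272 and 303 CPM in brain, and 399 and 444 CPM and 499 and 547 CPM in leg. Cyt-c1 and UQCR-C1 of complex III had log2 fold changes of IFM over brain of 4.24 and 3.76 and of IFM over leg of 2.78 and 2.50. COX4 and COX7C of complex IV had 3.19 and 3.49 against brain and 2.19 and 2.32 against leg. COX7A, the exception, had 28.5 and 28.2 CPM in IFM, 150 and 170 CPM in brain and 85.0 and 90.1 CPM in leg, and was named after its values were seen.

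The summed CPM of the 69 nuclear subunits was 126983 in IFM A and 156286 in IFM B, so that it was lower in the library with more mitochondrial counts. The 8 mitochondrial protein genes summed to 174109 CPM in IFM A and 57193 CPM in IFM B. The ratio of these sums, mitochondrial over nuclear, was 1.37 and 0.366 for the IFM libraries, 0.692 and 0.583 for those of brain and 0.551 and 0.505 for those of leg, and the IFM values lay on either side of those of brain and leg.

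**Figure D5:**
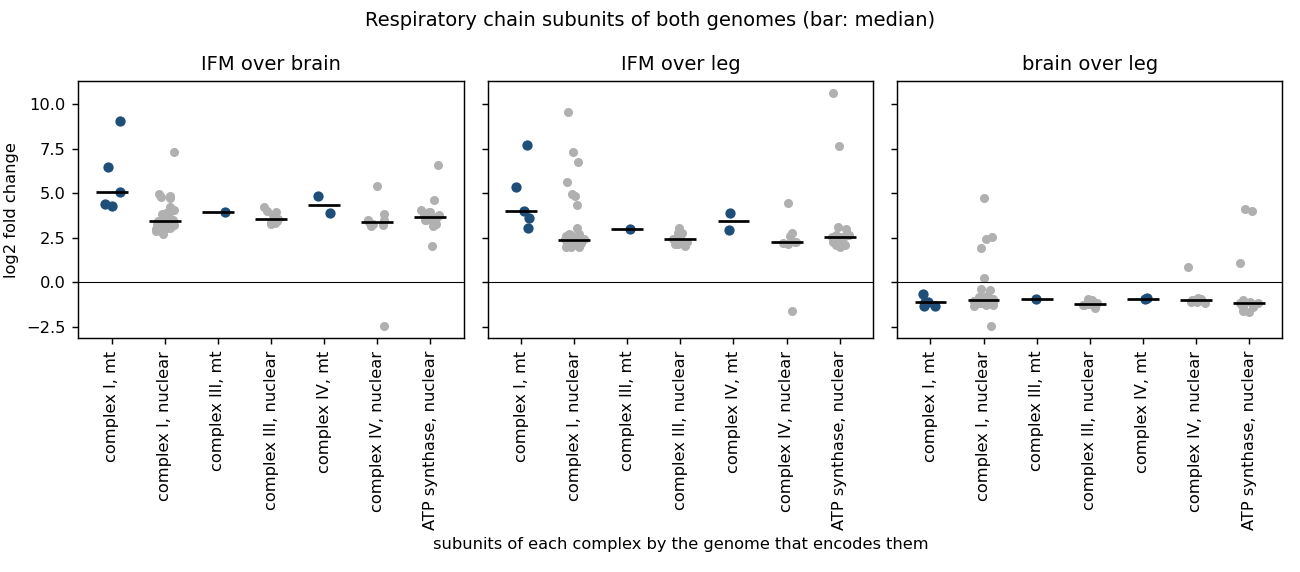
Log2 fold change of each subunit (points) and the median (bar) by complex and by the genome that encodes it, for the 3 comparisons. Mitochondrial (blue) and nuclear (grey) subunits lie above 0 for IFM over brain and IFM over leg except nuclear COX7A (8 of the 69 nuclear points passed the filter only through IFM), and their medians lie near -1 for brain over leg; relative to the summed mitochondrial counts mt:CoI, mt:Cyt-b and mt:ND3 fall below 0 for IFM.

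Nuclear genes for mitochondrial gene expression and upkeep of mitochondrial DNA were also higher in IFM. Of 20 such genes tested from a list of 29 names, the other 9 not being among the tested symbols, 16 were higher in IFM than in brain and 16 higher in IFM than in leg, beside 33.1% and 29.8% of all genes, with median log2 fold changes of 2.00 and 2.01. TFAM, which packages mitochondrial DNA and starts transcription, had 127 and 133 CPM in IFM, 13.2 and 14.3 CPM in brain and 19.1 and 25.2 CPM in leg (log2 fold change 3.24 against brain, adjusted p = 3.5e-05). bsf, an RNA-binding protein that stabilises mitochondrial mRNAs, had 475 and 662 CPM in IFM, 63.8 and 60.1 CPM in brain and 78.7 and 86.6 CPM in leg, and Lrpprc2, which acts in mitochondrial translation, had 70.3 and 80.0 CPM in IFM, 7.96 and 8.40 CPM in brain and 14.6 and 15.6 CPM in leg. mldr had 18.8 and 9.60 CPM in IFM, 0.986 and 1.495 CPM in brain and 2.88 and 1.72 CPM in leg. The 4 that did not pass in either comparison were scu, RNaseZ, mtSSB and Top3alpha.

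Reads over unannotated splicing events were nearly absent from the mitochondrial genome, whose genes have no annotated introns. The event tables, whose replicate numbers cannot be tied to libraries A and B, listed 13 reads on it in replicate 1 of IFM and 2 reads in replicate 2, out of 1798695 and 3507067 event reads, and 0 in the brain and leg libraries. With 0 of 1403095 event reads in brain and 0 of 1123850 in leg, shares of up to 0.000214% and 0.000267% remain possible from counting error alone. Of the 15 reads, 4 lay over 2 short stretches listed as intron retention, at positions 9965 to 9970 and 10496 to 10498, on either side of mt:ND6. The other 11 were called introns inside an exon, in mt:lrRNA, mt:CoI, mt:ND4, mt:ND4L, mt:ND6 and mt:Cyt-b.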

How the data were processed

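The submitters' processing notes name the build BDGP6 and, among tools, STAR 2.7.3a for alignment, SAMtools 1.1, featureCounts of Subread 2.0.0 for gene counts and DESeq2 1.32.0 for the authors' own comparison of tissues. Their 3 deposited gene tables hold a mean normalized count (signal) over 4 libraries, with fold changes and p-values that were not used. Their 3 deposited exon tables hold raw counts per exon bin and library, also with the authors' own comparisons, which were not used; the counter is not given in the sources used here. Their deposited event tables hold raw read counts per unannotated event and read end, which were added. Replicates were not pooled except in the means.

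Exon bins were summed per gene. Of 64208 bins, 1011 in 1 exon table lack a count for 2 libraries and were left out, and 13 to 15 repeated bins and 135 or 136 lines per table that could not be read or had no gene symbol were dropped. Genes with at least 50 counts over the 6 libraries (12345 of 12391) were fitted with edgeR 4.0.16 in R 4.3.3 (TMM, quasi-likelihood F test, tissue as the only factor, all libraries in 1 fit, Benjamini-Hochberg at 0.05 over all genes, two-sided); SEs are the fold change over the root of F. edgeR was tested on simulated data. Groups at 0 counts get a fold bound from a floor of 3 counts over the group. Python 3.11.15 with pandas, scipy and matplotlib did the rest. Gene positions come from the Ensembl annotation of the same assembly; 23 of the 26 bins equal the annotated gene.

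The text names all mitochondrial genes, the 2 nuclear subunits of each complex with most counts, and the 4 members of the expression list with the largest called fold change of IFM over brain. The members and lists were chosen with earlier results of these data known. Alternatives were DESeq2 1.42.0, other scalings and filters, fits of 4 libraries, bins in all 3 tables, and leaving out each library.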

Additional observations from a re-analysis of the deposited data

How the results depend on the processing

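The counts of mitochondrial genes called in the fit of 26 genes were 23 for IFM over brain, 18 for IFM over leg and 0 for brain over leg, where 66.6%, 57.3% and 43.5% of all genes were called; 10 of the 23 and 6 of the 18 passed the filter only through IFM. Library sizes set to the summed mitochondrial counts gave 11 calls (8 higher, 3 lower in IFM) and 9 calls (8 higher, 1 lower) for the comparisons with IFM, where 77.4% and 70.2% of all genes were called. By this scaling 4.07% and 4.43% of all genes were higher and 73.3% and 65.8% lower in IFM. In each comparison 5 of the 8 higher calls passed the filter only through IFM and carry no weight as a count. Total exon counts gave 17 and 16, all higher in IFM, where 75.7% and 61.8% of all genes were called. Of all genes called by that scaling, 24.5% and 33.4% were higher in IFM. Both counts include genes, among them mt:ori, that passed the filter only through IFM. For IFM over brain, a minimum of 500 counts gave 15 calls of 17 genes, where 71.6% of all genes were called. Bins listed in all 3 exon tables, an alternative chosen after seeing the data, gave 13 of 15, where 67.1% of all genes were called. Fewer genes were tested in both. For brain over leg, DESeq2 gave 3 calls, total exon counts 1 and the fit of 4 libraries 8, where 50.3%, 55.7% and 52.5% of all genes were called. Leaving out 1 library at a time, the mean shares ran from 3.44% to 12.0% in IFM, 1.09% to 1.18% in brain and 1.22% to 1.29% in leg. The other alternatives for shares moved them by less than the spread between libraries. Without each library in turn, the log2 fold changes of the 23 and 18 called genes stayed above 0 wherever they were tested. The lowest were 0.99 for mt:srRNA against brain and 0.88 for mt:tRNA:Leu-TAA against leg. Some calls were lost in these fits, as given above. Of the called genes, 10 and 6 passed the filter only through IFM and carry no weight as a count. Scaled to the summed mitochondrial counts, log2 fold changes changed sign for IFM over brain in mt:CoI (-0.17), mt:Cyt-b (-0.30), mt:ND3 (-0.13), mt:srRNA (-2.19), mt:tRNA:Cys-GCA (-3.59), mt:tRNA:Leu-TAA (-0.13) and mt:tRNA:Tyr-GTA (-3.49). For IFM over leg they changed sign in mt:CoI (-0.16), mt:Cyt-b (-0.32), mt:srRNA (-0.28), mt:tRNA:Leu-TAA (-0.85) and mt:tRNA:Tyr-GTA (-2.23). They also did so, called in neither fit, in mt:ND3 (-0.53), mt:tRNA:Ala-TGC (-0.78), mt:tRNA:Arg-TCG (-1.42), mt:tRNA:Asn-GTT (-2.07), mt:tRNA:Cys-GCA (-2.17) and mt:tRNA:Ser-GCT (-1.48). These sign changes follow from the scaling, which takes out the change of the summed counts of the 26 genes. Total exon counts moved the median of all genes by -1.35, -0.57 and 0.78 on the log2 scale for IFM over brain, IFM over leg and brain over leg. No paired analysis was possible because the exon columns carry no replicate number that ties them to the labels. Depth limits the tRNA genes, 11 of the 26 genes having under 50 counts in brain and leg together.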
